A study of Mus musculus with 65 samples.

Results

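Chromatin immunoprecipitation of SYCP3 in mouse testes lacking IHO1 was compared, peak by peak, with the same experiment in the wild type. A peak of one list counted as found in the other where the intervals shared at least 1 bp, which gave shared peaks, peaks called only in the wild type and peaks called only in the knockout. The members were the 1911 wild-type and 5380 Iho1KO SYCP3 peaks, 7291 of the 97260 peaks in the 24 deposited lists. The wild-type group had 2 samples and the Iho1KO group 1, each group had a single list. The sources do not say if that list pools the replicates.

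All mice were labelled C57BL/6JCrl. The groups were wild-type animals and Iho1tm1.2Atot (Iho1KO) animals, with SYCP3 lists of B6;129P2-Prdm9tm1Ymat/J (Prdm9KO), Spo11tm1Mjn (Spo11KO), Mei4tm1Bdm (Mei4KO) and Hormad1tm1.2Atot (Hormad1KO) mice for comparison. Pups aged 1.5 days received WIN 18,466 by mouth for 7 to 10 days, and 1 injection of retinoic acid then started meiosis in step. Whole testes were taken 8 days after the injection, at 80 to 95% leptotene and zygotene spermatocytes, and fixed in 4% formaldehyde for 15 minutes. Per the series' design text, the signal of SYCP3 in Sycp3tm1Hoog (Sycp3KO) testes, 1 sample, was subtracted from the SYCP3 data. Peak lists carry no expression, so the stage of the cells could not be checked from markers. Sequencing depth is unknown, so a peak called in 1 list only is a statement about that list and not a measurement of absence in the other. SYCP3 peaks have no height in these files, and width is the only quantity the lists give for each of them.

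SYCP3 is a structural protein of the chromosome axis, the proteinaceous core from which the chromatin loops of meiotic chromosomes extend. HORMAD1 is an axis protein that recruits IHO1, and IHO1 acts with MEI4 and REC114 in complexes on the axis that are needed for SPO11 to make DNA double-strand breaks. PRDM9 marks the break sites on the loops, known as hotspots, where the recombinase DMC1 later binds the single-stranded ends. CTCF is an architectural protein that anchors chromatin loops together with cohesin.

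Most knockout-only SYCP3 peaks lay at gene starts, and starts with such a peak tended to be rich in CpG dinucleotides. The sequences of 6 starts are shown for that reason: 4 axis or synapsis genes with a knockout-only peak, and 2 genes of sperm chromatin, Prm1 and Tnp1, without one. Each is the 150 bases immediately before the start, 5′ to 3′ on the gene's strand, from RefSeq (GRCm38.p6), with every CpG in capitals. The choice of genes was made with their peaks known.
Sycp3 (chr10:88459437-88459586, plus strand): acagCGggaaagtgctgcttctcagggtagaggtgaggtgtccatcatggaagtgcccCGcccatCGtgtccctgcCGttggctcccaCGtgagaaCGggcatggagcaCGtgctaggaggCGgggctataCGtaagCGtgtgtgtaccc
Hormad1 (chr3:95559527-95559676, plus strand): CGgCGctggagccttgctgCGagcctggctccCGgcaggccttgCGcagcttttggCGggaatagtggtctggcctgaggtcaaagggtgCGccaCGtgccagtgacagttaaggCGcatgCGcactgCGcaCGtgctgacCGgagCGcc
Smc3 (chr19:53600246-53600395, plus strand): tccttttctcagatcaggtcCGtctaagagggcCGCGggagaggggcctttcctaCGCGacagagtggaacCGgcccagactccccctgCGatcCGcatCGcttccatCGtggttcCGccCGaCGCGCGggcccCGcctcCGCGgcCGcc
Sycp1 (chr3:102936101-102936250, minus strand): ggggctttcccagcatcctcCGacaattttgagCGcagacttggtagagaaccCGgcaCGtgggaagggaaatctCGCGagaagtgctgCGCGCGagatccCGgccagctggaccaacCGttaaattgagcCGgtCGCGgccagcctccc
Prm1 (chr16:10796824-10796973, minus strand): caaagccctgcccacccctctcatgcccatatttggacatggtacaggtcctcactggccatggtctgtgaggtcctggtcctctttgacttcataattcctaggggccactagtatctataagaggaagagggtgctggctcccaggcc
Tnp1 (chr1:73015900-73016049, minus strand): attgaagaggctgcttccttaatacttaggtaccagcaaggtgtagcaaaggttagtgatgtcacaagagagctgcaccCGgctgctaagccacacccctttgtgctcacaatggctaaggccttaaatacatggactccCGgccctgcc
The stretch before Sycp3 held 10 CpG, that before Hormad1 14, that before Smc3 19 and that before Sycp1 14. The stretch before Prm1, which encodes a protamine, held 0 and that before Tnp1, which encodes a transition protein, held 2. A longer window ran from 250 bases before to 50 after the start. It held 15 CpG for Sycp3, 24 for Hormad1, 32 for Smc3, 21 for Sycp1, 1 for Prm1 and 6 for Tnp1. The median was 13 over all starts and 28 at those with a knockout-only peak, so Sycp3 was near the former. Not every gene followed the contrast: Msh4, with 6, had a knockout-only peak.

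Of the 1911 wild-type SYCP3 peaks, 640 were found in Iho1KO (33.5%, 95% Wilson interval 31.4 to 35.6%) and 1271 were not. Of the 5380 Iho1KO peaks, 668 were found in the wild type (12.4%, 11.6 to 13.3%) and 4712 were not. The lists differ in length, and with only the 1911 widest Iho1KO peaks the shares were 20.9% and 21.6%. These intervals hold only the error of counting, as if each peak were independent of the others, and no difference between the genotypes has a replicate check. Of the shared wild-type peaks, 616 met exactly 1 Iho1KO peak and 24 met more, up to 5. The 3 classes occupied different kinds of sites. Of the wild-type-only peaks, 79.8% lay at DMC1 hotspots (1014 of 1271). Among shared peaks the commonest site was a CTCF peak, at 51.2% (328 of 640 wild-type intervals). Of the knockout-only peaks, 65.2% lay within 1 kb of the start of a protein-coding gene (2991 of 4589).

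**Figure D1:**
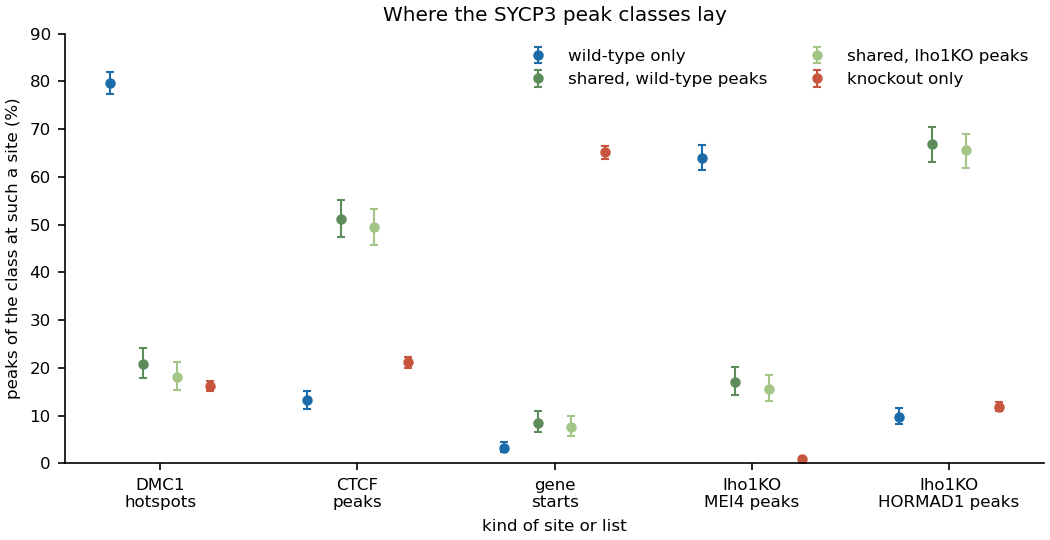
Share of each class of SYCP3 peaks (y axis, percent of the peaks of the class) at 5 kinds of site (x axis), with 95% Wilson intervals. Wild-type-only peaks stand highest at hotspots (79.8%) and at Iho1KO MEI4 peaks (64.0%), shared peaks at CTCF peaks (51.2%) and at Iho1KO HORMAD1 peaks (66.9%), and knockout-only peaks at gene starts (65.2%).

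Relative to the shared peaks, wild-type-only peaks lay at hotspots more often by 59.0 percentage points (Newcombe 95% interval 55.0 to 62.6), or by 36.0 points (31.8 to 40.0) when an overlap had to cover 50% of the shorter interval. They lay at CTCF peaks less often, 13.2% against 51.2%, a difference of -38.0 points that was -13.2 points (-19.4 to -7.5) within the wider 50% of each list, -24.8 points with only the 1911 widest Iho1KO peaks and -24.4 points outside hotspots. Gene starts accounted for few of either: 3.25% of the wild-type-only peaks (40 of 1232) and 8.54% of the shared ones (54 of 632), a difference of -5.30 points (-7.88 to -3.05). Its size depended on the setting. It was -2.18 points with a 1 kb window at peak centres, -11.4 points within the wider 50% of each list and -12.7 points with either end of genes in place of starts. Among peaks outside hotspots it was -2.73 points, and its interval included 0. In all, 71.8% of the wild-type-only peaks were at a hotspot and at neither of the other sites, and 12.5% were at none of the 3.

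The hotspots that held wild-type-only SYCP3 were the strong ones. Their median deposited DMC1 value was 2489 (900 hotspots), against 129 over all 13808 hotspots. They were 6.52% of all hotspots. With the hotspots ranked into 10 equal classes by DMC1 value, 55.7% of the strongest class held a wild-type-only peak, 7.68% of the next, 0.724% of the third and at most 0.290% of each weaker class. The 3 highest values at wild-type-only peaks were 18961 at chr1:68487799-68490366, 17661.5 at chr2:98107401-98109376 and 17525 at chr12:34594047-34596444, coordinates as deposited for mm10 and counted from 1.

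The wild-type peaks at hotspots were broad, and some lay beside the hotspot centre. Wild-type-only peaks at hotspots had a median width of 4140 bp. Of these 1014 peaks, 690 covered the centre of a hotspot (68.0%) and had a median width of 4862.5 bp, while those that did not had a median width of 1705.5 bp. At 117 hotspots exactly 2 wild-type-only peaks were called, with peak centres a median of 1402 bp from the hotspot centre. Separate peaks that meet 1 hotspot will mostly lie on opposite sides of it, so their sides are not counted here. Across the strongest 10% of hotspots, 51.0% were covered by a wild-type SYCP3 peak at the centre (48.4 to 53.7%), 59.1% at 1500 bp to the left (56.4 to 61.6%) and 56.1% at 1500 bp to the right (53.5 to 58.7%). The interval at the centre overlapped the one to the right and not the one to the left.

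The Iho1KO list lacked that breadth. At the centres of the same 1380 hotspots an Iho1KO SYCP3 peak was present at 6.88%, and at 1500 bp on either side at 0.435% and 1.09%. Wild-type HORMAD1 was about as broad, with overlapping intervals at centre and flanks, and Iho1KO HORMAD1 was highest at the centre. Wild-type coverage was 33.7% at the centre and 36.2% and 37.03% at 1500 bp on either side, and Iho1KO coverage was 5.0% at the centre and 1.01% at both flanks. MEI4 coverage was highest at the centre in both genotypes. It was 64.9% in the wild type and 79.8% in Iho1KO at the centre, and 20.7% and 11.4% at 1500 bp to the left.

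**Figure D2:**
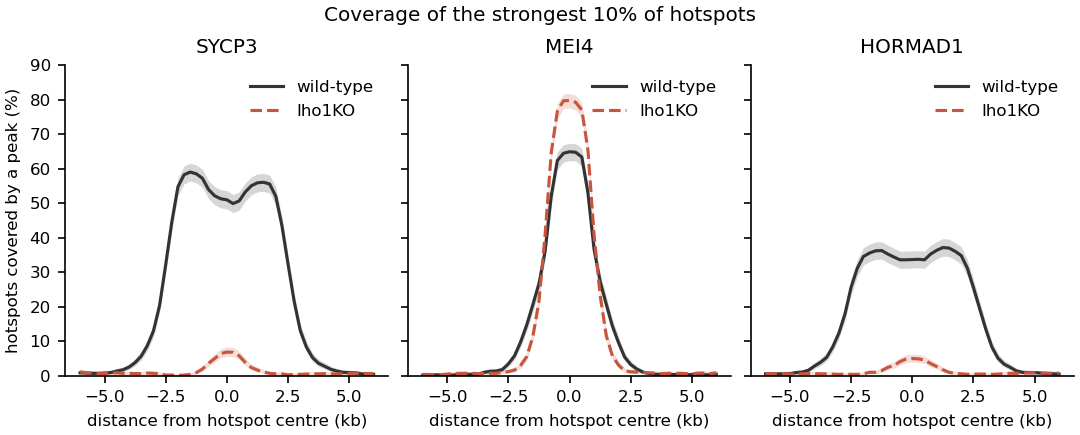
Percent of the 1380 hotspots in the strongest 10% by DMC1 value that were covered by a peak (y axis) at each distance from the hotspot centre in kb (x axis), for SYCP3, MEI4 and HORMAD1. Solid lines are wild type, dashed lines Iho1KO, and bands are 95% Wilson intervals. The wild-type SYCP3 curve is broad (59.1% at 1500 bp to the left, 51.0% at the centre, 56.1% at 1500 bp to the right, the last 2 with overlapping intervals), the Iho1KO SYCP3 curve reaches 6.88%, and the MEI4 curves have 1 peak in both genotypes.

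MEI4, a partner of IHO1 in break formation, was called in Iho1KO at most hotspots where SYCP3 was called in the wild type only. Of the 1014 wild-type-only SYCP3 peaks at hotspots, 799 met an Iho1KO MEI4 peak (78.8%, 76.2 to 81.2%). A wild-type MEI4 peak was met by 637 of them (62.8%). Of the shared wild-type peaks at hotspots, 75.9% met an Iho1KO MEI4 peak. Of all hotspots in the strongest of 10 classes, 80.0% held one, against 0.145% in the weakest. Among the wild-type-only peaks the share also went up with the DMC1 value. It was 67.3% in the weakest of 4 equal classes of these peaks, then 77.5%, 83.5% and 87.0% in the strongest. Only 34 of the 1014 met an Iho1KO HORMAD1 peak (3.35%), although 497 had a HORMAD1 peak in the wild type (49.0%). Seen from the MEI4 list, 32.0% of the 2679 Iho1KO MEI4 peaks lay at a wild-type SYCP3 peak and 5.49% at an Iho1KO SYCP3 peak. Over the classes, 64.0% of wild-type-only peaks and 17.03% of shared peaks met an Iho1KO MEI4 peak, a difference of 47.0 points that was 4.26 points outside hotspots.

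HORMAD1 of the Iho1KO testes was called at most of the shared peaks. An Iho1KO HORMAD1 peak was present at 66.9% of the shared wild-type intervals, against 9.76% of the wild-type-only peaks (a difference of -57.1 points, -38.0 outside hotspots) and 11.9% of the knockout-only peaks (a difference of -53.7 points from the shared Iho1KO intervals, and of -30.4 points within the wider 50% of each list). In the wild type, 65.9% of the shared peaks met HORMAD1 and 53.8% met IHO1. Both were also frequent at the wild-type-only peaks, HORMAD1 at 45.3% and IHO1 at 41.3%.

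Whether a wild-type peak at CTCF was called again rose with the strength of the CTCF site. The shared class held 1.0% of all CTCF peaks, the wild-type-only class 0.514% and the knockout-only class 3.05%. Wild-type SYCP3 peaks at the weakest of 4 equal classes of these CTCF peaks were found in Iho1KO in 37.1% of cases, and the next classes gave 63.7%, 79.0% and 84.7%. Iho1KO peaks at CTCF showed the same order when sought in the wild type, from 6.91% through 15.7% and 33.9% to 43.1%. The median deposited CTCF score was 3.99 at shared peaks, 2.62 at wild-type-only peaks and 2.52 at knockout-only peaks, with 1.92 over all 32676 CTCF peaks. With each list cut to its wider 50% and partners sought again, the order turned, to 2.81 at shared and 2.8997 at knockout-only peaks. That cut also moved peaks between classes, since an Iho1KO peak whose wild-type partner was dropped counted as knockout-only. The highest score at a shared peak, 37.3, belonged to chr14:124801578-124802163, and the highest at a knockout-only peak, 10.6, to a peak on the X chromosome at chrX:150477608-150479041. For wild-type peaks outside hotspots, 80.4% of those with an Iho1KO HORMAD1 peak and 45.1% of those without were found in Iho1KO.

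Wild-type peaks at hotspots showed no such gradient. From the weakest to the strongest of 4 equal classes of wild-type hotspot peaks by DMC1 value, 14.6%, 6.27%, 6.62% and 18.9% were found in Iho1KO. Iho1KO hotspot peaks, classed in the same way and sought in the wild type, gave 0.905%, 3.62%, 3.17% and 47.3%. The shared peaks met 0.978% of all hotspots by their wild-type intervals and 0.869% by their Iho1KO intervals. The 133 shared wild-type peaks at hotspots included the 3 hotspots of the highest values at any shared peak, 20822.5 at chr11:89610453-89613094, 20513.5 at chr2:38136483-38138890 and 18957.5 at chr10:92679601-92682158. At shared hotspots 43.6% of the peaks met an Iho1KO HORMAD1 peak (58 of 133). In the wild-type list, 63.0% of the hotspot peaks with Iho1KO HORMAD1 (58 of 92) and 7.11% of those without it (75 of 1055) were found in Iho1KO.

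Where a peak was shared, the Iho1KO interval was usually the narrower. Over 671 overlapping pairs the centres were a median of 161.5 bp apart, the Iho1KO width was a median of 0.831 of the wild-type width, and the Iho1KO interval was narrower in 505 pairs (75.3%). The contrast was largest at hotspots, where shared peaks had a median width of 5851 bp in the wild type (133 peaks) and 1711 bp in Iho1KO (121 peaks). At CTCF peaks the medians were 1659 and 1478 bp. Over whole classes the median widths were 3349 bp for wild-type-only, 2190.5 bp for shared wild-type and 1162 bp for knockout-only peaks. The order of the first 2 turned when Iho1KO peaks were limited to the 1911 widest, to 2720.5 and 3024 bp, and when each list was limited to its wider 50%, to 4989.5 and 5335 bp.

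The wild-type intervals of 1 chromosome end were nearly all shared. In the distal 3 Mb of chromosome 9, a boundary chosen after the values were seen, 51 of 53 wild-type peaks were found in Iho1KO (96.2%) and 66 of 106 Iho1KO peaks were found in the wild type (62.3%). The corresponding ends of chromosomes 4 and 13 had 4 of 9 and 2 of 5 wild-type peaks found again. On the other autosomes the distal ends had 20 of 40. Of the 3 widest shared peaks at gene starts, 2 lay there, chr9:124098885-124130530 at Ccr2, a chemokine receptor gene, and chr9:124262665-124285996 at Gm39469, and the third was chr16:17263686-17280811 at Tmem191c. Without the distal 3 Mb of chromosome 9, 11.4% of Iho1KO peaks were found in the wild type.

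The knockout-only peaks were narrow, and most of those at gene starts had their centre just inside the gene. Their share at gene starts exceeded that of shared Iho1KO peaks by 57.6 points (54.9 to 59.8), 65.2% against 7.60%. The centres of 58.7% of all knockout-only peaks were within 500 bp of a protein-coding start, compared with 0.649% of wild-type-only peaks. For knockout-only peaks at starts, the centre lay downstream of the start in 80.1% and at a median of 167 bp into the gene (quartiles 37 and 296 bp). Wild-type-only peaks were a median of 53340 bp away from a start.

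**Figure D3:**
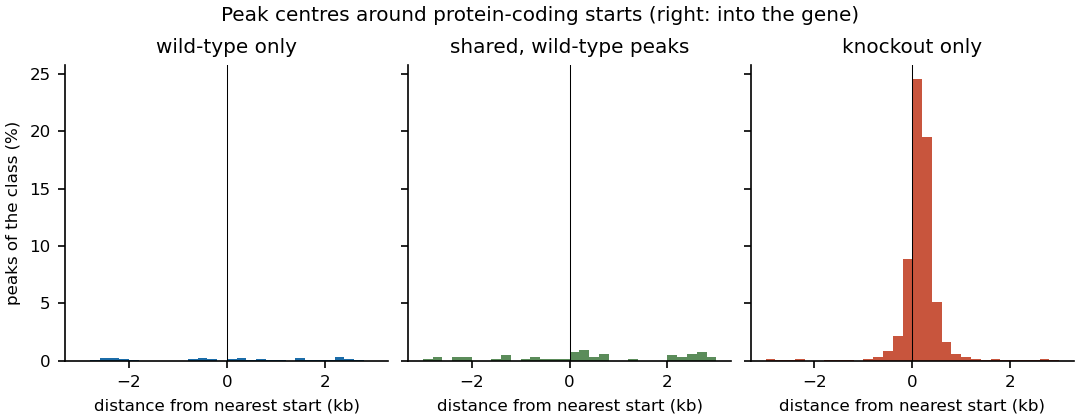
Centres of SYCP3 peaks by signed distance from the nearest protein-coding start in kb (x axis, positive into the gene, 200 bp bins), as percent of the peaks of the class (y axis), for wild-type-only, shared wild-type and knockout-only peaks. Knockout-only peaks pile up just to the right of the start, with a median of 167 bp for those at starts, and the other classes show no such pile.

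Of 17492 protein-coding genes with a start in the RefSeq promoter table, 3253 had a knockout-only SYCP3 peak (18.6%), 56 had a shared peak (0.32%) and 41 a wild-type-only peak (0.234%). The 3253 became 1463 with the wider 50% of each list and 926 with only the 1911 widest Iho1KO peaks. Counted by start, 3798 of 21263 protein-coding starts had a knockout-only peak (17.9%). Starts of long non-coding RNA genes had one in 4.63% of cases, and in 1.29% when they lay over 2 kb from a protein-coding start. The widest knockout-only peaks at starts were chr4:156214942-156236483, which spanned Klhl17, Noc2l, Perm1 and Plekhn1, chr7:16475314-16493387 at Npas1 and chr9:123753302-123771268 at Ccr9.

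The share of starts with a knockout-only peak rose at every step of CpG number. Starts with a knockout-only peak had a median of 28 CpG in the 300 bases from 250 before to 50 after the start. The median was 13 over all starts, 16 at shared peaks, 6 at wild-type-only peaks and 9 at starts with no SYCP3 peak in either list. By CpG number, 0.538% of starts with 0 to 1 CpG had a knockout-only peak, 5.0% of those with 5 to 9, 17.3% of those with 15 to 19 and 51.6% of those with 30 to 67. Base composition is shared by many starts, so these shares describe the list and not single genes.

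**Figure D4:**
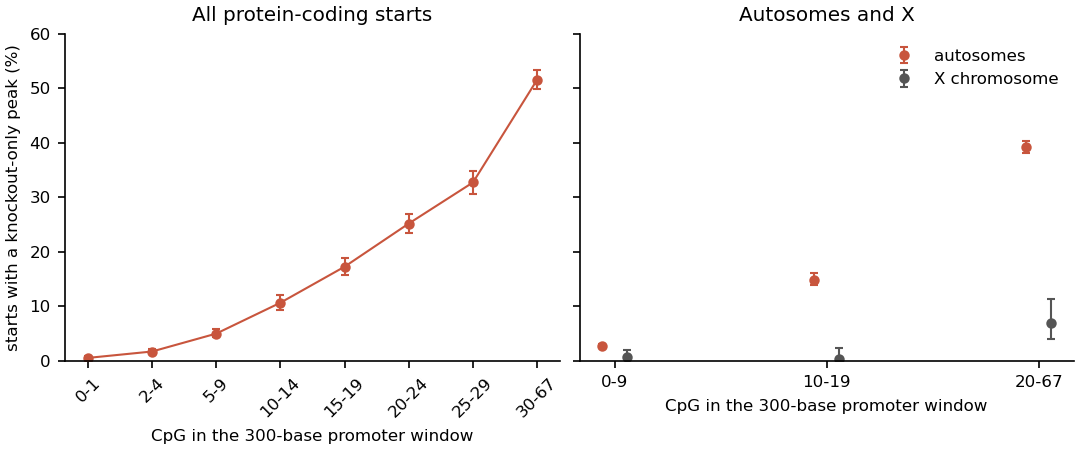
Percent of protein-coding starts with a knockout-only SYCP3 peak (y axis) by the number of CpG in the 300-base promoter window (x axis), with 95% Wilson intervals, for all starts (left) and for autosomes and the X chromosome apart (right). The share rises from 0.538% to 51.6% over the bins at left, and at right the X chromosome is below the autosomes at each CpG class (6.88% against 39.3% at 20 to 67 CpG).

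The short promoter motifs searched were commoner at the knockout-only starts. Between starts of like CpG number, differences were smaller and of either sign. Each motif was searched on both strands of the 300 bases. GGGCGG, the core of the GC box, was in 76.0% of knockout-only starts and 46.2% of all starts. The palindromic NRF1 motif was in 2.79% and 1.33%. CCGGAAG, of ETS factors, was in 18.9% and 11.6%, TGACGTCA, the cyclic AMP response element, in 3.05% and 2.23%, AAGATGGC, of YY1, in 5.0% and 3.05%, and CACGTG, the E-box, in 11.4% and 7.84%. CACGTG stands in the Sycp3, Hormad1 and Sycp1 stretches above, and the NRF1 motif in that of Hormad1. Among starts with 15 to 24 CpG the shares with a knockout-only peak were 22.0% with GGGCGG and 19.7% without, 18.1% with the NRF1 motif and 21.4% without, 21.6% with CCGGAAG and 21.2% without, and 25.3% with AAGATGGC and 21.1% without. They were 20.3% with TGACGTCA and 21.3% without, and 20.6% with CACGTG and 21.4% without. Pairs of starts facing away from each other made up 15.1% of knockout-only starts and 9.29% of all starts.

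The X chromosome had few knockout-only peaks. It held 29 of 4712 (0.615%), against 2.91% of wild-type-only and 2.66% of shared wild-type peaks, and 4.51% of protein-coding starts. Of X-linked starts, 18 of 960 had a knockout-only peak (1.88%, 1.19 to 2.94%), compared with 18.8% of autosomal starts (18.3 to 19.4%). The gap was also present within classes of CpG number. Among starts with 20 or more CpG, 13 of 189 on the X had one (6.88%, 4.06 to 11.4%) and 2927 of 7451 on autosomes (39.3%, 38.2 to 40.4%). With 30 or more CpG, 4 of 49 on the X (8.16%) and 1689 of 3234 on autosomes (52.2%) did. These classes are broad, and CpG number was not matched within them. None of the 218 starts on the Y chromosome had one, but 211 of these had 0 to 9 CpG, a class in which 2.71% of autosomal starts had a knockout-only peak.

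Knockout-only peaks also met DMC1 hotspots, in 16.2% of cases, close to the 18.1% of shared Iho1KO peaks (a difference of -1.94 points, -5.21 to 1.00). The 2 sets of hotspots were of different strength. Hotspots at knockout-only peaks were 5.5% of all and had a median DMC1 value of 64.5 (760 hotspots), against 2834.5 at shared wild-type peaks (135 hotspots). Limited to the stronger 50% of hotspots, the difference was -12.5 points. Occupancy rose from 0.725% in the strongest of the 10 classes to 9.56% and 9.85% in classes 7 and 8.

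**Figure D5:**
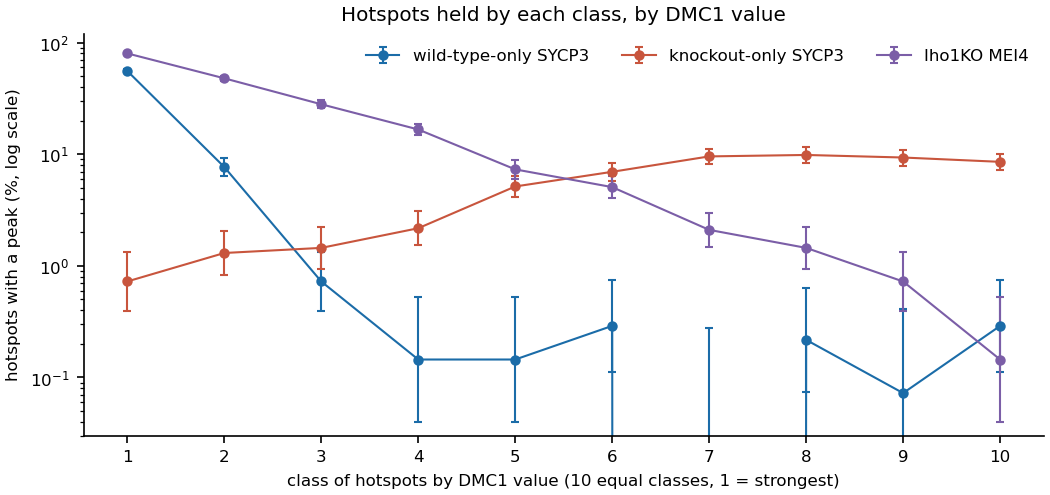
Percent of hotspots that held a wild-type-only SYCP3 peak, a knockout-only SYCP3 peak or an Iho1KO MEI4 peak (y axis, log scale) in 10 equal classes by DMC1 value (x axis, class 1 strongest), with 95% Wilson intervals. Wild-type-only SYCP3 falls from 55.7% to 0.145% in class 4 (its value of 0 in class 7 is off the scale), Iho1KO MEI4 falls from 80.0%, and knockout-only SYCP3 rises from 0.725% to 9.85% in class 8.

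Most of the knockout-only peaks at hotspots were also at gene starts, 537 of 725 (74.1%). Weak hotspots themselves lay at gene starts more often, 18.6% of the weakest class and 2.11% of the strongest. Among hotspots in the weaker 5 classes, 46.1% of those at gene starts had a knockout-only peak (461 of 1001) and 2.12% of the others did (119 of 5620). In the stronger 5 classes the shares were 32.5% and 1.06%. Conversely, a start with 20 or more CpG had a knockout-only peak in 54.5% of cases when it lay at a hotspot and in 36.0% when it did not. The highest DMC1 values at knockout-only peaks, 9462.5 at chr6:140590069-140592610, 7640.5 at chr1:84804837-84807531 and 5207 at chr9:59483583-59485772 beside Arih1, a ubiquitin ligase gene, were exceptions to the low values.

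Other proteins of the Iho1KO testes were seldom called at knockout-only peaks at gene starts. Of 2991 such peaks, 15 met an Iho1KO MEI4 peak (0.502%) and 81 an Iho1KO HORMAD1 peak (2.71%). Of the knockout-only peaks away from gene starts, 464 of 1598 met an Iho1KO HORMAD1 peak (29.04%). CTCF peaks were present at 16.2% of those at starts and at 30.1% of those away from them. Over the class the share at CTCF was 21.2%, which was 28.3 points under that of shared Iho1KO peaks. This difference depended on the setting. With each list cut to its wider 50% and partners sought again, it was 0.82 points, and its interval included 0. The cut fell at 2791 bp in the wild-type list, above the median of 1659 bp of shared wild-type peaks at CTCF. Iho1KO peaks whose partner was dropped then counted as knockout-only, so the change is not a measure of width. In their own lists, 7.72% of Iho1KO HORMAD1 and 2.59% of Iho1KO MEI4 peaks lay at gene starts, compared with 65.2% of knockout-only SYCP3 peaks.

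SYCP3 lists of the other knockouts contained part of the knockout-only set. All SYCP3 lists share the subtracted Sycp3KO sample, so they are not independent of each other, and all 5 knockouts are set here against the same wild-type list. Of 4712 knockout-only peaks, 1484 met a SYCP3 peak of at least 1 other knockout (31.5%) and 18 met all 4. Spo11KO, lacking the enzyme that makes breaks, matched 23.9%, Mei4KO 14.6%, Prdm9KO 5.84% and Hormad1KO 4.41%, with lists of 2369, 1125, 607 and 823 peaks. As a share of each of those lists, peaks at Iho1KO knockout-only sites made up 47.3%, 60.4%, 46.1% and 24.7%. Gene starts were frequent in 3 of the 4, at 43.8% of Spo11KO, 47.7% of Mei4KO and 40.9% of Prdm9KO peaks, and less so at 11.1% of Hormad1KO peaks. Of shared wild-type peaks, 85.0% met at least 1 other knockout list. Of wild-type-only peaks 33.1% did, close to the 31.5% of knockout-only peaks. All 4 lists were met by 0.865% of wild-type-only and 0.382% of knockout-only peaks. Of the 1014 wild-type-only peaks at hotspots, 297 met a Spo11KO SYCP3 peak (29.3%), 84 a Hormad1KO peak (8.28%), 2 a Mei4KO peak and 0 a Prdm9KO peak, which allows a share of up to 0.296% by 3 counts and has a Wilson upper limit of 0.377%.

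Of the 18 knockout-only peaks present in all 4 other knockouts, the 5 with the most bases shared with those lists were chr4:155731045-155740690, chr13:23697388-23700001 at H4c3 and chr13:23694866-23696996 at H1f6, both histone genes of the large cluster on chromosome 13, chr11:97186559-97189162 at Kpnb1, the gene of a nuclear import receptor, and chr1:60341744-60344722 at Cyp20a1.

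Several genes of the meiotic programme were among those with a knockout-only peak at their start, in proportions to be read against the 18.6% of all protein-coding genes in the same full lists. Of 10 axis and cohesin genes in the table, 3 had one. Sycp3 itself, on chromosome 10, had a peak at chr10:88459287-88460778 with its centre 446 bp into the gene. Hormad1 had one at chr3:95559324-95560327, and Smc3, a core cohesin subunit, at chr19:53599859-53601158. Of 7 synapsis genes 3 had one: Sycp1, of the transverse filament of the synaptonemal complex, at chr3:102935318-102936290, Syce2 at chr8:84871910-84872994 and Tex12 at chr9:50560844-50561743, both of its central element. No gene of these lists had a wild-type-only or shared peak.

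Of 19 break repair genes 5 had a knockout-only peak: Dmc1 at chr15:79604482-79605217, Brca2 at chr5:150522478-150523095, Msh4 at chr3:153905161-153906406, Hfm1 at chr5:106925567-106927040 and Mcm9 at chr10:53629202-53630227. Dmc1 is the meiotic recombinase, Brca2 loads recombinases, Msh4 and Hfm1 act in crossover formation and Mcm9 is a helicase-like repair protein. Of 11 genes of the break machinery only Ewsr1, at chr11:5098134-5100045, had one. Of 11 genes of spermatogonia and meiotic entry 2 did, the germ-cell RNA-binding protein genes Dazl (chr17:50292606-50294088) and Ddx4 (chr13:112651517-112653434).

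The spermatid, somatic and olfactory receptor lists had none. A knockout-only peak was present at 0 of 16 spermatid genes, 0 of 7 genes of somatic testis cells and 0 of 944 olfactory receptor genes, and at 18 of 61 cytosolic ribosomal protein genes. The lists also differed in CpG, with medians of 1 for olfactory receptor, 4 for spermatid and 6 for somatic genes. Medians were 14 for spermatogonia and meiotic entry, 17 for break machinery and 20.5 for axis genes. Synapsis and ribosomal protein genes had 21 each, and break repair genes 25. The order by CpG was not the order by share, which was 26.3% for break repair and 42.9% for synapsis genes. The somatic list had a shared peak at 1 gene, Cyp11a1, a steroid-synthesis enzyme of Leydig cells, at chr9:57997774-57998725. These lists are short, and nothing particular to any of them is claimed from the counts. The part of CpG number in them was not tested beyond the shares by CpG given above.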

How the data were processed

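Peak lists were analysed by position. Per the labels, each list is a chromatin immunoprecipitation from synchronised testes. The submitters' processing notes name Bowtie2, MACS2 and mm10 without role or version, and the thresholds are not given in the sources used here. The lists the authors deposited hold chromosome, start and end. The wild-type DMC1 list adds a deposited value per hotspot whose unit is not named, and the CTCF list a deposited score per peak. Both values are the authors', and they were used to rank sites within their own list. The SYCP3 data were already net of Sycp3KO, so sites with signal in that mouse may be missing from both lists. Depth is unknown.

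Overlaps, Wilson and Newcombe intervals (95%) were computed in Python 3.11.15 (numpy 2.4.6, pandas 2.3.3) and tested on simulated data. A difference counted as called where its interval excluded 0. Of the 24 lists, 13 were used. Gene starts were those of protein-coding genes in the RefSeq promoter table (GRCm38.p6, the same assembly as mm10), widened by 1 kb. The table has 17492 of 21900 protein-coding genes. It has no start on chromosome 18, so 47 wild-type and 133 Iho1KO peaks there were left out of start shares. Counts over gene lists are over the members that have a start in the table.

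Sites were named by rule: in each class the 3 widest peaks at a gene start, the 3 hotspots of highest DMC1 value and the 3 CTCF peaks of highest score, the 5 knockout-only peaks in the largest number of other SYCP3 knockout lists (ties by the bases shared with them), and all members of the axis, break and synapsis gene lists. Only part of them is printed. Members and lists were chosen with earlier results of these data known.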

Additional observations from a re-analysis of the deposited data

How the results depend on the processing

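Of 98 recomputed differences between classes, 91 kept their direction and their side of 0, though several moved in size by over 1.5 times, as given beside them. With the wider 50% of each list, the knockout-only minus shared difference at CTCF peaks turned to 0.82 points, that at Iho1KO MEI4 peaks was -26.8 against -14.6 (-1.83 outside hotspots), shares found again were 24.5% (wild type) and 9.51% (Iho1KO), median widths were 4989.5 (wild-type-only), 5335 (shared) and 1584 bp (knockout-only), and 1463 genes had a knockout-only peak. The same setting gave a median DMC1 value of 2859 at wild-type-only peaks and median CTCF scores of 2.10, 2.81 and 2.8997 in the wild-type-only, shared and knockout-only classes, which turned the order of the last 2. With as many of the widest Iho1KO peaks as the wild-type list holds, shares found again were 20.9% and 21.6%, widths 2720.5, 3024 and 1794.5 bp, CTCF scores 3.37 (wild-type-only) and 2.34 (knockout-only), and 926 genes had a knockout-only peak. In both settings partners were sought again in the shortened lists, so a peak whose partner was dropped changed class. The cause of these shifts was not tested beyond the smaller lists.

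The knockout-only minus shared difference at hotspots, whose interval included 0, excluded 0 in those 2 settings (-19.99 and -4.53 points), with the stronger 50% of hotspots (-12.5), away from gene starts (-6.66) and, chosen after seeing the data, with hotspots widened by 1 kb (-3.77). Away from hotspots, the wild-type-only minus shared difference at gene starts was -2.73 points and no longer excluded 0. A 1 kb window at peak centres gave shares found again of 30.7% and 10.9%. An overlap of 50% of the shorter interval gave a median DMC1 value of 2679.75 at wild-type-only peaks. The stronger 50% of hotspots gave 200.75 at knockout-only peaks, and the CTCF peaks of higher score gave 3.22 (wild-type-only) and 3.29 (knockout-only). Without the distal 3 Mb of chromosome 9, also chosen after seeing the data, 11.4% of Iho1KO peaks were found in the wild type. Either end of all protein-coding genes in place of starts, a further choice made after seeing the data, kept both differences at gene starts.

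No paired analysis was possible because each group has 1 list. Leaving out replicates was not run for the same reason. Unknown depth limits every statement on a peak found in 1 list only.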

Other observations

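Histone genes of the cluster on chromosome 13 stood out among gene families looked at after the values were seen: 25 of 51 had a knockout-only SYCP3 peak at a start (49.0%, Wilson interval 35.9 to 62.3%), with a median of 10 CpG. Zinc finger protein genes of the Zfp family had one in 59 of 305 cases (19.3%), proteasome subunit genes in 7 of 32 (21.9%) and mitochondrial ribosomal protein genes in 15 of 66 (22.7%), near the 18.6% of all protein-coding genes. Vomeronasal receptor genes had one in 1 of 321 cases, and keratin-associated protein genes in 0 of 51. Genes of these families sit in clusters and are not independent of each other.

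Of the knockout-only peaks, 953 of 4589 (20.8%) were at no hotspot, CTCF peak or protein-coding start, against 28.2% of shared wild-type and 12.5% of wild-type-only peaks. At 5 to 9 CpG, starts that faced away from another start had more knockout-only peaks than single starts, 22 of 96 (22.9%) and 136 of 3065 (4.44%). The shares were 7.5% and 1.65% at 2 to 4 CpG and 15.6% and 10.2% at 10 to 14. At 0 to 1 CpG, 0 of 21 and 13 of 2395 had one. Starts facing away had fewer at 15 to 19 CpG (13.2% and 17.9%), 20 to 24 (19.8% and 26.2%) and 25 to 29 (22.0% and 35.2%). At 30 to 67 CpG the shares were 55.3% and 50.8%. Intervals overlapped at 0 to 1, 10 to 14, 15 to 19 and 30 to 67 CpG. Histone genes were not set apart in these counts.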
